A study of Mus musculus with 16 samples.

Results

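Interferon response genes are the genes that cells switch on when an interferon binds its receptor, and their transcripts are a common readout of that signal. The set described here holds 36 mouse genes, taken by gene symbol from known targets of type I and type II interferon. All 36 were among the 49584 genes listed in the count table, and 35 were among the 15240 genes with enough counts for testing. The member that was not tested was Ifi44, an interferon-induced protein of microtubules, with 0 to 12 counts in a library.

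The libraries came from germinal centre B cells of the spleen, the cells that mutate and select their antibody genes after immunization. All mice were C57BL/6J, 3 months old, and were taken 8 days after immunization with sheep red blood cells. Mutant mice were Ezh2(Y641F)fl/wt;Cγ1-cre, with 1 conditional allele of the histone methyltransferase gene Ezh2 that carries the Y641F change known from germinal centre lymphoma. Control mice carried Cγ1-cre and no Ezh2 mutation, so the recombinase, which is driven from an immunoglobulin constant region locus and acts in B cells once that locus is transcribed, was in every mouse as 1 copy. Centroblasts, the dividing cells of the dark zone, were sorted as B220+, FAS+, CD38-, CXCR4+ and CD86-. Centrocytes, the cells of the light zone that are tested for antigen binding, were sorted as B220+, FAS+, CD38-, CXCR4- and CD86+. The groups were mutant centroblasts, control centroblasts, mutant centrocytes and control centrocytes, with 4 libraries each, described by the submitters as biological replicates and all labelled as 1 litter.

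Libraries held 35230563 to 44466911 counted reads. Y-linked transcripts marked libraries 1 and 2 of every group as male and libraries 3 and 4 as female, so sex cannot be told apart from any other difference between these library numbers. The 12 markers of germinal centre B cells summed to 8143 to 11510 CPM (a count divided by the size of its library after TMM normalisation) in the 16 libraries, and none of them was at 0. The 20 macrophage and monocyte markers summed to 41.96 to 122.6 CPM in mutant centroblasts and to 31.81 to 96.6 CPM in control centroblasts. They summed to 96.67, 59.16, 371.9 and 382.4 CPM in mutant centrocyte libraries 1 to 4, against 86.51 to 144.6 CPM in control centrocytes, so mutant centrocyte libraries 3 and 4 stood apart. None of the 20 was at 0 in any group. The 7 markers of conventional dendritic cells summed to 88.54 to 138.8 CPM in mutant and 64.95 to 69.4 CPM in control centroblasts, and to 102.5 to 154.8 CPM in mutant and 57.98 to 64.04 CPM in control centrocytes, none at 0 in any group. Of the 3 that could be tested Flt3 was higher in mutants of both zones, while Zbtb46 and Itgax had negative changes that did not pass. The 11 T cell markers summed to 8.464 to 12.34 CPM in mutant and 5.524 to 8.203 CPM in control centroblasts. Of the 8 that could be tested there 2 were higher, against 10.5% of all tested genes. Changes were positive for 3 and negative for 5 of them, with a median of −0.173 (log2). In centrocytes these sums overlapped, at 13.93 to 18.03 CPM in mutants and 10.85 to 14.8 CPM in controls. There 1 was higher, against 16.5% of all tested genes, with 4 changes positive and 4 negative. The part of these cells in the results was not tested. The 8 markers of plasmacytoid dendritic cells, which include the member Bst2, summed to 292 to 346.9 CPM in mutant and 273.5 to 351.5 CPM in control centroblasts.

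Type I interferons, made by many infected cells, signal through the receptor chains encoded by Ifnar1 and Ifnar2. The kinases JAK1 and TYK2 then act on STAT proteins, among them STAT2, which form a complex with IRF9. That complex binds the interferon-stimulated response element (ISRE) in promoters. Interferon gamma, made chiefly by T and NK cells, signals through the chains of Ifngr1 and Ifngr2 to the gamma-activated site (GAS) of its target genes. Many targets are sensors or effectors against viruses, and some, such as Irf7 and Stat2, feed back on the pathway itself.

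The ISRE was looked for in the promoters of the members, since it is the element through which type I interferon acts. RefSeq promoter windows of the GRCm38.p6 build, from 250 bases before to 50 after the start of a gene, were found by symbol for 26 of the 36 members. None was found for Mx1, Mx2, Oas2, Dhx58, Usp18, Rtp4, Zbp1, Ifi27, Ifi27l2a and Parp14. The ISRE core, 2 copies of GAAA with 2 bases of any kind between them, was searched on both strands and was in the windows of 16 of these 26 genes (61.5%) and in those of 3.99% of all 27025 genes with a window. The GAS motif TTCNNNGAA, whose letters read the same on both strands and may overlap an ISRE core, was in the windows of 6 of the 26 genes (23.1%) and of 9.55% of all genes. The members were chosen as known interferon targets, so larger shares among them can follow from that choice and are no test. A match is a string of letters and not evidence of binding. Oasl1, Oasl2, Irf7, Irf9, Ifi44, Ifi47 and Xaf1 had neither motif in these windows. The stretches below surround the ISRE cores of 8 members that are named further on. They are read on the strand of the gene, with the cores of either orientation in capitals.
Isg15, chr4:156200850-156200921, minus strand: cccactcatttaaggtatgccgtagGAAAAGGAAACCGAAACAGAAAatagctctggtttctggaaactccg
Ifit3, chr19:34583348-34583441, plus strand: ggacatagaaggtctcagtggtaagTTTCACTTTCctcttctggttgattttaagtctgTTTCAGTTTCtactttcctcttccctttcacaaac
Ifit3b, chr19:34607744-34607837, plus strand: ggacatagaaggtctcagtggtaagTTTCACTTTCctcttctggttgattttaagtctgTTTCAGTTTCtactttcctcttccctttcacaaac
Oas1a, chr5:120907526-120907570, minus strand: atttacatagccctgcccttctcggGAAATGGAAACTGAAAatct
Oas3, chr5:120777700-120777759, minus strand: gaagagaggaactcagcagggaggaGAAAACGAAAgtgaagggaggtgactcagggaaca
Igtp, chr11:58199497-58199555, plus strand: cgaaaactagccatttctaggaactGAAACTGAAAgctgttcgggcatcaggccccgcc
Irgm1, chr11:48871421-48871475, minus strand: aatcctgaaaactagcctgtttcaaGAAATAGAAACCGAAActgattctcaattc
Gbp2, chr3:142620579-142620638, plus strand: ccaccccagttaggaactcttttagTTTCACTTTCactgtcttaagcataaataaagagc
In Isg15 the capitals span 3 overlapping cores, and in Oas1a and Irgm1 they span 2. The 94 bases shown for Ifit3 and Ifit3b, neighbouring paralogs, are identical letter for letter.

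Among members with a promoter window, those with an ISRE core did not all change with genotype, and those without one were among those that did. Dhx58, Ifi27l2a, Mx2 and Rtp4, each called in a genotype comparison, had no window and could not be placed. Igtp, with a core next to its start, differed by 0.02 ± 0.24 (log2, SE) between mutant and control centroblasts (edgeR, adjusted p = 0.971). Irgm1, a relative of Igtp with 2 cores, rose by 0.89 ± 0.25 in the same comparison (adjusted p = 0.0317), and Irf7 and Ifi47, with no core in the window, rose as well.

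Mutant centroblasts had more transcript of several interferon response genes than control centroblasts. Ifi27l2a, a small interferon-induced membrane protein gene, was 2.81-fold higher, Mx2, which encodes a dynamin-like GTPase, 2.98-fold, Irgm1 1.85-fold and Ifi47 1.65-fold. Smaller rises were those of Dhx58, the RNA sensor LGP2, at 1.44-fold, Irf7 at 1.43-fold and Stat2 at 1.2-fold. Ifit2, whose protein binds viral RNA, went the other way and was 2.55-fold lower. In all, 7 of 35 tested members were higher and 1 was lower at an adjusted p under 0.05, or 22.9%, against 10.5% of all tested genes (4.06% higher and 6.4% lower). Of all genes called, 38.8% were higher, or 51.7% with an offset for gene length and GC content, under which 10 members were higher and 1 lower. More of all genes were called under that offset too, with 1461 higher and 1367 lower, against 619 and 976 without it. The change was positive for 29 of 35 members and for 51% of all tested genes. Its median was 0.51 (log2) over the members and 0.008 over all tested genes. The 4 mutant and 4 control libraries did not overlap for 10 of the 35, of which 9 were higher and 1 lower, against 14.4% of all tested genes (6.36% higher and 8.01% lower). In bulk RNA, a change in the share of cells that express a gene and a change in transcript per cell cannot be told apart.

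These counts depended on single libraries. Without both mutant libraries 3, 4 members were called in centroblasts, with Dhx58, Ifi47 and Ifi27l2a higher and Ifit2 lower, against 8.73% of all genes tested there. Without mutant centroblast library 3 alone 3 were called. The number was 4 without mutant centroblast library 1 or 4, or without control centroblast library 1 or 3. No share of all genes is given for the fits without 1 library, so a fall particular to the members is not shown. With the summed macrophage markers as a covariate 9 members were called, with 8 higher and 1 lower, against 10.5% of all tested genes.

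Mutant centrocytes differed from control centrocytes in fewer members, and the share was near that of other genes. Dhx58 was 1.6-fold higher, Irf7 1.43-fold, Rtp4, a receptor-transporting protein gene with antiviral activity, 3.02-fold, Ifi27l2a 3.04-fold and Ifi35, the gene of an interferon-induced leucine zipper protein, 1.25-fold. Gbp3, of the guanylate-binding proteins, was 1.53-fold lower. With 5 higher and 1 lower, 17.1% of the members passed the test, against 16.5% of all tested genes (7.37% higher and 9.15% lower). Of all genes called, 44.6% were higher, or 56.2% with the offset, under which 6 members were higher and 1 lower. Over all genes the offset gave 2375 higher and 1848 lower, against 1123 and 1394 without it. The change was positive for 26 of 35 members and for 50.1% of all tested genes. Its median was 0.36 (log2) for the members and 0.001 for all tested genes. The libraries did not overlap for 5 members, Irf7, Dhx58, Ifi27l2a and Ifi35 as higher and Gbp3 as lower, against 23.5% of all tested genes (11.1% higher and 12.4% lower). Irf7, Dhx58 and Ifi27l2a were higher in both genotype comparisons. These share no library but were fitted in 1 model. The labels do not say whether the zones came from the same mice, so the comparisons may not be independent. Without mutant centrocyte libraries 3 and 4, which held the most macrophage transcript, 4 members were called, against 7.64% of all genes tested there. Dhx58 was higher and Ifit2, Gbp2 and Gbp3 were lower. The libraries left out were also the female ones of mutant centrocytes, so sex and macrophage transcript cannot be told apart in that fit. Without both mutant libraries 3 the number was also 4, with Dhx58 and Ifi27l2a higher and Ifit2 and Gbp3 lower, against 11.2%. With the macrophage markers as a covariate it was 7, with Irf7, Dhx58 and Ifi27l2a higher and Ifit2, Oasl2, Gbp2 and Gbp3 lower, against 14.7%. Without control centrocyte library 3 the number called was 2, and without mutant centrocyte library 4 it was 3. No share of all genes is given for these last fits, so a fall particular to the members is not shown.

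**Figure D1:**
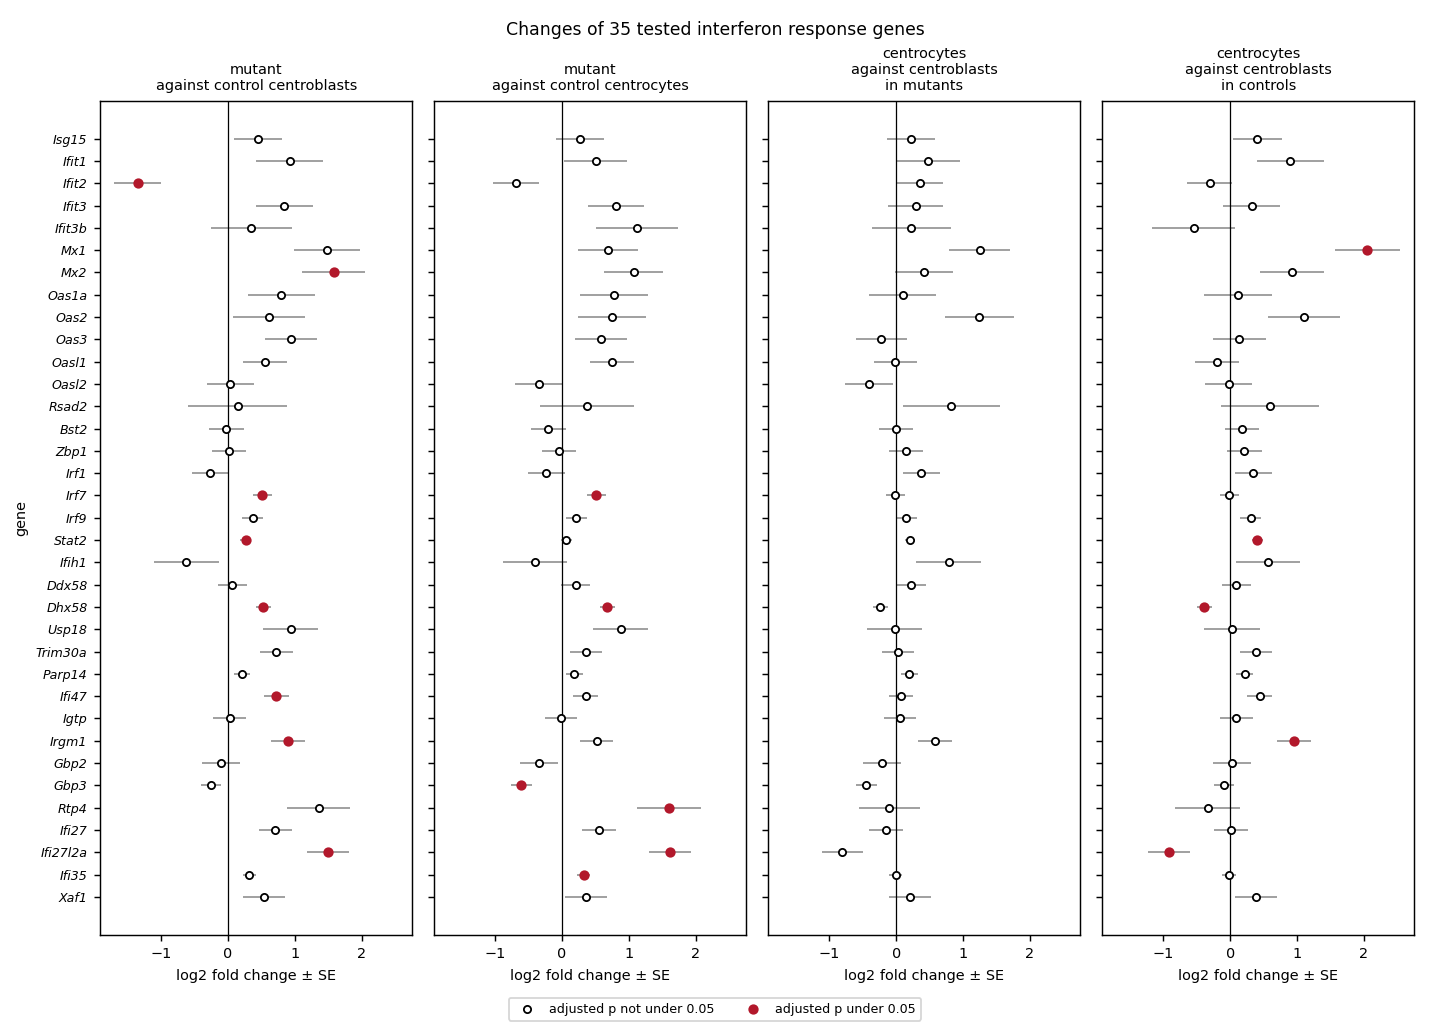
Log2 fold change (point) and its SE (bar) of 35 tested interferon response genes in 4 comparisons, with filled points for an adjusted p under 0.05 in edgeR. In centroblasts 29 of 35 points lie right of 0 between mutants and controls, against 51% of all tested genes, and Ifit2 is the filled point on the left.

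Of the 4 transcription factors, 2 were higher in mutant centroblasts and 1 in mutant centrocytes. Irf7, the factor that amplifies type I interferon production, had 53.8, 47.3, 65.3 and 53.5 CPM in mutant centroblasts, against 27.2, 42.7, 38.0 and 46.0 CPM in control centroblasts. In centrocytes it had 54.1, 47.0, 62.2 and 54.5 CPM in mutants, against 37.6, 40.0, 35.2 and 40.0 CPM in controls. Every mutant library lay above every control library in both zones, with changes of 0.51 ± 0.14 in centroblasts (log2, SE, adjusted p = 0.0288) and 0.51 ± 0.14 in centrocytes (adjusted p = 0.0225). The call in centroblasts was lost without control library 1 or 3 or mutant library 1, 3 or 4 (highest adjusted p 0.113), and that in centrocytes without control library 2 or 3 or mutant library 3 or 4 (highest adjusted p 0.0738). Irf7 spans bases 141262706 to 141266481 of chromosome 7 in GRCm38, on the minus strand, and its exons overlap those of Phrf1 on the other strand. The strand setting of the counting is not given in the sources used here, so reads of such pairs cannot be told apart. The same doubt holds for the counts of Ifi35, whose exons share 290 bases with Gm11626 on the other strand, of Rtp4, which shares 296 bases with Gm45338 on its own strand, and of Ifi47, which shares 111 bases with Olfr56 on its own strand and 106 with Gm12188 on the other. Igtp, Irf1, Irf9, Oasl1, Parp14, Usp18 and Gbp2 also have exons that overlap those of another gene.

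Stat2, a subunit of the ISRE-binding complex, was the steadiest member. It had 111, 102, 111 and 114 CPM in mutant centroblasts, against 86.5, 93.6, 92.6 and 92.2 CPM in control centroblasts. The groups did not overlap, and the change was 0.26 ± 0.08 (adjusted p = 0.0473), but the call was lost whichever of the 8 libraries was left out. In centrocytes Stat2 had 133, 131, 116 and 125 CPM in mutants and 109, 118, 125 and 131 CPM in controls, ranges that overlapped, with a difference of 0.06 ± 0.08 (adjusted p = 0.626). Its residual SD between libraries of a group was 0.083 (log2), and 0.84% of tested genes had a smaller one. Irf9, which brings DNA contact to the same complex, differed by 0.37 ± 0.16 in centroblasts (adjusted p = 0.163) and 0.21 ± 0.16 in centrocytes (adjusted p = 0.377). Irf1, the factor first in line after interferon gamma, averaged 73.6 ± 22.3 CPM in mutant centroblasts and 88.5 ± 32.7 CPM in control centroblasts (SD, n = 4 each), a difference of −0.26 ± 0.27 (adjusted p = 0.63).

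Among the RNA sensors, Dhx58 rose in both zones, and its relatives did not pass the test. Dhx58 had 63.9, 56.2, 73.5 and 70.0 CPM in mutant centroblasts, against 39.2, 47.3, 46.0 and 50.6 CPM in control centroblasts. In centrocytes it had 57.4, 52.1, 56.2 and 57.9 CPM in mutants and 39.6, 36.6, 31.8 and 32.1 CPM in controls. The groups were separate in both zones and in both sexes. The changes were 0.53 ± 0.11 in centroblasts (adjusted p = 0.00465) and 0.67 ± 0.11 in centrocytes (adjusted p = 0.00066), and both were called whichever library was left out. Ddx58, which encodes RIG-I, the sensor of RNA with a triphosphate end, differed by 0.07 ± 0.22 in centroblasts (adjusted p = 0.896) and 0.20 ± 0.22 in centrocytes (adjusted p = 0.561). Ifih1, which encodes MDA5, the sensor of long double-stranded RNA, averaged 1.22 ± 0.81 CPM in mutant centroblasts and 1.89 ± 0.62 CPM in control centroblasts, and its difference of −0.62 ± 0.49 did not pass (adjusted p = 0.498). Dhx58 spans bases 100694884 to 100704271 of chromosome 11, also on the minus strand, and 141 bases of its exons overlap the antisense transcript Dhx58os.

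The effectors that bind viral RNA or work in the cytosol were mostly low. In centroblasts 13 of these 15 genes had a positive change, against 51% of all tested genes. Mx2 had 1.36, 0.904, 1.88 and 1.24 CPM in mutant centroblasts, against 0.305, 0.749, 0.229 and 0.516 CPM in control centroblasts. Every mutant library was above every control library, with a change of 1.58 ± 0.47 (adjusted p = 0.0379) that was lost without control library 1 or 3 or mutant library 1, 3 or 4 of the centroblasts. In centrocytes Mx2 had 1.12, 1.02, 3.53 and 1.55 CPM in mutants and 0.722, 1.5, 0.470 and 0.729 CPM in controls, so the groups overlapped (1.07 ± 0.44, adjusted p = 0.107). Mx1, its neighbour on chromosome 16, is known to be a defective allele in C57BL/6J mice and still gives a transcript. It had 1.63, 0.657, 3.11 and 1.82 CPM in mutant centroblasts and 0.527, 0.904, 0.457 and 0.696 CPM in control centroblasts, a difference of 1.48 ± 0.49 with an adjusted p of 0.0647.

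Ifit2 was the effector that fell. It had 3.02, 3.51, 4.56 and 2.42 CPM in mutant centroblasts, against 8.51, 11.8, 8.41 and 5.83 CPM in control centroblasts. All 4 mutant libraries were below all 4 control libraries, with a change of −1.35 ± 0.35 (adjusted p = 0.0177). In centrocytes it had 2.87, 1.72, 7.52 and 5.19 CPM in mutants and 5.40, 9.23, 7 and 6.29 CPM in controls, where 3 mutant libraries were below all controls and mutant library 3 was above 3 of them (−0.69 ± 0.34, adjusted p = 0.18). Its neighbours on chromosome 19 in the same family went the other way without passing the test. Ifit1, which binds RNA caps, differed by 0.92 ± 0.50 in centroblasts (adjusted p = 0.291), and Ifit3, which stabilizes it, by 0.84 ± 0.42 (adjusted p = 0.255). The call of Ifit2 in centroblasts was lost without control library 2 or mutant library 1 or 4, with adjusted p values up to 0.0646. Reads of near-identical pairs such as Ifit3 and Ifit3b, and of the Oas1, Gbp, Trim30 and Ifi27l2 families, may be divided between copies, so these counts are uncertain.

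Zbp1, a sensor of Z-form nucleic acid, had the highest mean CPM of these 15 and did not pass the test. It had 24.6, 33.6, 56.6 and 41.2 CPM in mutant centroblasts and 27.3, 36.6, 44.9 and 45.6 CPM in control centroblasts (0.02 ± 0.26, adjusted p = 0.98). The mutant range enclosed the control range. Oas3, a synthetase of the oligoadenylates that activate RNase L, averaged 6.19 ± 3.70 CPM in mutant centroblasts and 3.23 ± 0.81 CPM in control centroblasts (0.94 ± 0.39, adjusted p = 0.15). Isg15, the ubiquitin-like modifier that gives many reports of interferon their main marker, averaged 5.99 ± 2.35 CPM in mutant centroblasts and 4.39 ± 1.54 CPM in control centroblasts (0.45 ± 0.36, adjusted p = 0.514). Rsad2, which encodes viperin, differed by 0.14 ± 0.74 in centroblasts (adjusted p = 0.936). It had the widest spread of the members, a residual SD of 1.18 (log2).

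The GTPases of the interferon gamma response were divided. Ifi47 had 56.1, 63.2, 117 and 65.9 CPM in mutant centroblasts, against 40.7, 48.1, 47.5 and 46.7 CPM in control centroblasts, with no overlap (0.72 ± 0.19, adjusted p = 0.0183). In centrocytes Ifi47 had 64.8, 69.7, 97.6 and 85.7 CPM in mutants and 54.8, 66.2, 66.3 and 61.3 CPM in controls, where the lowest mutant library was below 2 control libraries (0.35 ± 0.19, adjusted p = 0.207). Irgm1, which guards vacuoles of intracellular microbes, had 16.5, 20.2, 34.4 and 16.3 CPM in mutant centroblasts, against 10, 14.2, 11.8 and 11.2 CPM in control centroblasts. The 4 mutant libraries were again above the controls (0.89 ± 0.25, adjusted p = 0.0317), and in centrocytes, with 24.7, 24.9, 45.8 and 35 CPM in mutants and 15.1, 21.8, 28.0 and 26.4 CPM in controls, the ranges overlapped (0.51 ± 0.25, adjusted p = 0.173). The call of Ifi47 was lost without control centroblast library 1 or mutant centroblast library 3 (highest adjusted p 0.0695). That of Irgm1 was lost without control library 1, 3 or 4 or mutant library 2 or 3 of the centroblasts (highest adjusted p 0.146).

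Gbp3 fell in mutant centrocytes. It had 19.0, 14.4, 20 and 21.5 CPM in mutant centrocytes, against 26.7, 25.9, 33.4 and 28.2 CPM in control centrocytes, and the groups were separate (−0.61 ± 0.16, adjusted p = 0.0129). The call was lost without control centrocyte library 3 (adjusted p = 0.0517). In centroblasts it had 27.4, 25.6, 27.7 and 21.2 CPM in mutants and 29.5, 28.8, 39.5 and 23.8 CPM in controls, which overlapped (−0.26 ± 0.16, adjusted p = 0.359). Its neighbour on chromosome 3, Gbp2, differed by −0.11 ± 0.29 in centroblasts (adjusted p = 0.87) and −0.34 ± 0.29 in centrocytes (adjusted p = 0.443).

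Ifi27l2a carried the most transcript for its length of all 36 members. Per kilobase of its longest transcript it averaged 380 CPM in mutant centroblasts and 135 CPM in control centroblasts, and 218 CPM in mutant centrocytes and 71.7 CPM in control centrocytes. The next member on that scale in mutant centroblasts was Ifi35, at 52.2 CPM per kilobase. Ifi27l2a had 135, 146, 256 and 167 CPM in mutant centroblasts, against 40.8, 63.1, 58.7 and 88.1 CPM in control centroblasts. In centrocytes it had 68.4, 52.5, 183 and 100 CPM in mutants and 35, 33.2, 31.3 and 33.4 CPM in controls. No mutant library overlapped the controls of its zone, and mutant library 3 was the highest of its group in both. The changes were 1.49 ± 0.31 in centroblasts (adjusted p = 0.00427) and 1.60 ± 0.31 in centrocytes (adjusted p = 0.00227), and both were called whichever single library was left out. The gene spans 103442167 to 103443680 of chromosome 12 on the minus strand, beside Ifi27, an interferon-induced protein of the mitochondrial or nuclear membrane. Ifi27 averaged 43.7 ± 18.6 CPM in mutant centroblasts and 26.8 ± 5.26 CPM in control centroblasts (0.71 ± 0.25, adjusted p = 0.0885).

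**Figure D2:**
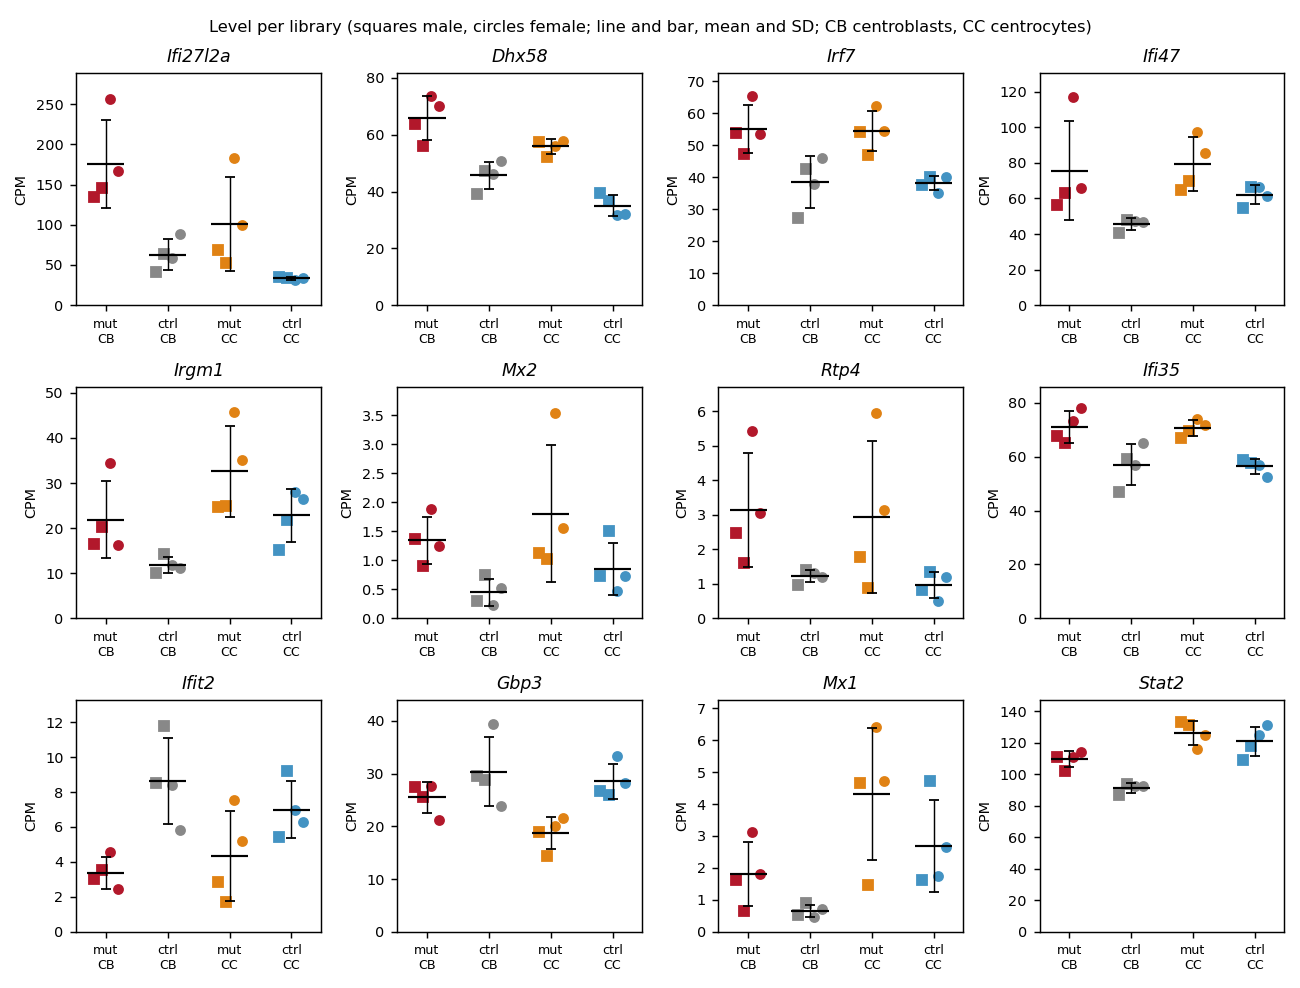
CPM in each library of the 12 members called in any comparison of genotype or zone (squares male, circles female, line and bar mean and SD, n = 4). For Ifi27l2a the 4 mutant centroblast libraries lie between 135 and 256 CPM, all above the control centroblasts.

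Rtp4 and Ifi35 were called in centrocytes and not in centroblasts, although in centroblasts too all mutant libraries were above all controls, and no interaction of genotype and zone passed. Rtp4 had 1.78, 0.886, 5.94 and 3.13 CPM in mutant centrocytes, against 0.83, 1.34, 0.517 and 1.19 CPM in control centrocytes, so 1 mutant male lay inside the control range (1.59 ± 0.48, adjusted p = 0.0302). In centroblasts it had 2.47, 1.59, 5.42 and 3.06 CPM in mutants and 0.971, 1.39, 1.32 and 1.21 CPM in controls (1.36 ± 0.47, adjusted p = 0.079). Ifi35 had 67.0, 69.6, 73.9 and 71.8 CPM in mutant centrocytes, against 58.7, 57.7, 57.0 and 52.3 CPM in control centrocytes, a narrow and separate pair of ranges (0.32 ± 0.10, adjusted p = 0.0377). In centroblasts Ifi35 had 67.5, 65.2, 73.3 and 78.1 CPM in mutants and 47.0, 59.1, 56.9 and 65.1 CPM in controls (0.32 ± 0.10, adjusted p = 0.055). The centrocyte call of Ifi35 was lost whichever library was left out (adjusted p 0.0511 to 0.114), and that of Rtp4 was lost without control library 1, 3 or 4 or mutant library 3 or 4 of the centrocytes.

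The feedback members and modifiers did not pass the test in either zone. All 3 were positive in both, as were 51% of all tested genes in centroblasts and 50.1% in centrocytes. Usp18, the protease that removes ISG15 and blocks IFNAR2, averaged 6.46 ± 3.73 CPM in mutant centroblasts and 3.39 ± 1.46 CPM in control centroblasts (0.93 ± 0.41, adjusted p = 0.181). Trim30a, a brake on inflammatory signalling in mice, differed by 0.72 ± 0.24 in centroblasts (adjusted p = 0.0689). Parp14, an ADP-ribosyl transferase, had the highest mean CPM of the 3, with 136, 112, 160 and 117 CPM in mutant centroblasts and 117, 130, 116 and 91.4 CPM in control centroblasts (0.21 ± 0.13, adjusted p = 0.357). These ranges overlapped. Among the remaining targets Xaf1, a factor that promotes cell death, differed by 0.53 ± 0.31 in centroblasts (adjusted p = 0.345).

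The members varied more between libraries of the same group than other genes did. Their median residual SD was 0.49 (log2) against 0.271 for all tested genes, and 28 of 35 were above that median. The comparison was not matched for level. Rsad2 and Ifit3b, the members of widest spread, had a mean log2 CPM of −0.95 and −0.78, against 6.8 for Stat2, the steadiest. Summed over the 36 members, mutant centroblast libraries 1 to 4 had 1013, 1001, 1568 and 1168 CPM, against 753.4, 929.2, 912.2 and 923.9 CPM in control centroblasts. Mutant centrocytes had 1043, 984.1, 1460 and 1267 CPM, against 850.8, 1027, 1047 and 1018 CPM in control centrocytes. The sum was thus separate between genotypes in centroblasts and overlapping in centrocytes. Ifi27l2a made up 13.3% to 16.3% of the sum in mutant centroblasts and 5.42% to 9.53% in control centroblasts. Without Ifi27l2a the sums were 878, 854.5, 1312 and 1001 CPM in mutant centroblasts, against 712.6, 866.2, 853.4 and 835.8 CPM in control centroblasts, and the groups overlapped, with mutant library 2 below control library 2.

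**Figure D3:**
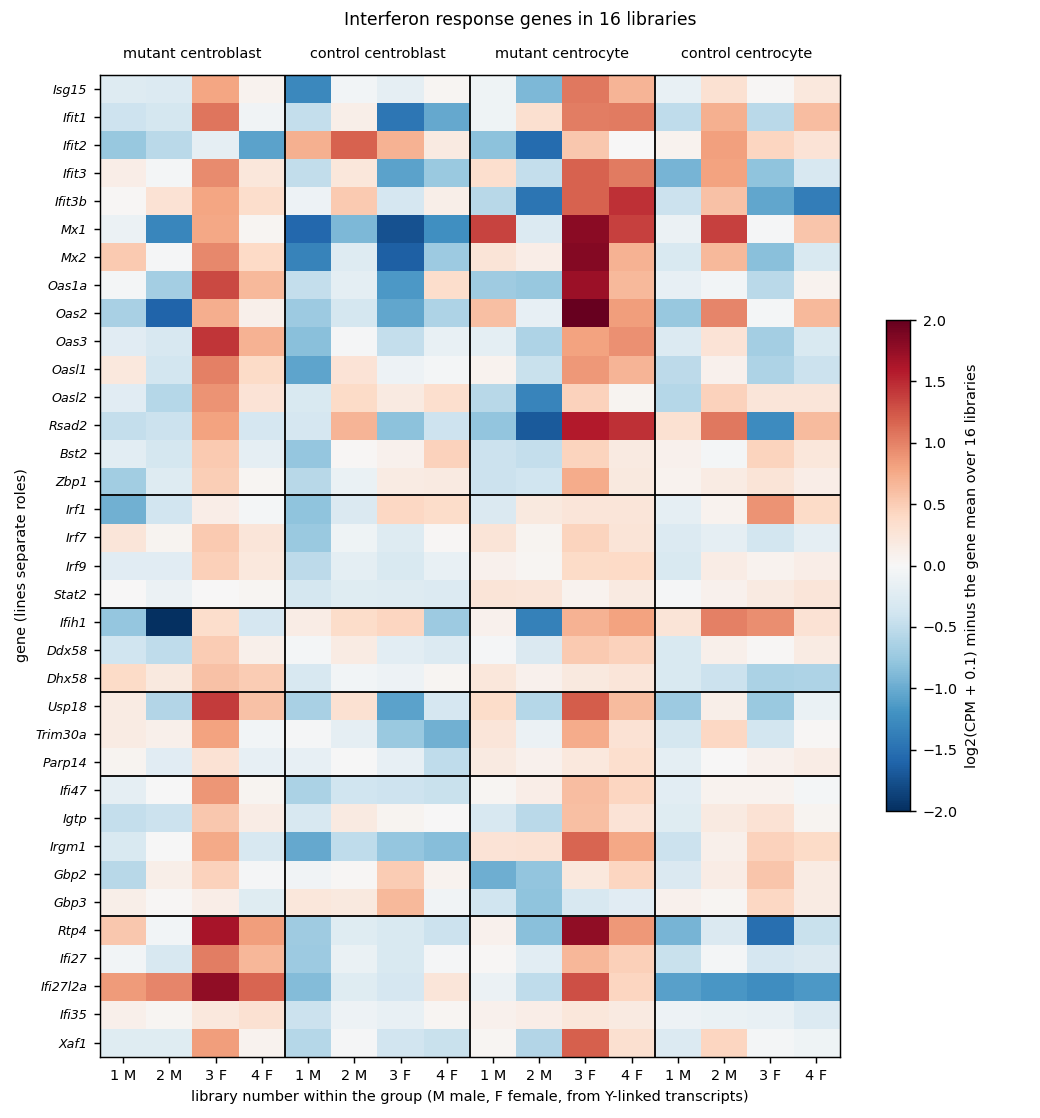
Level of 35 members in 16 libraries, as log2 of CPM plus 0.1 minus the gene's mean over the libraries (red high, blue low, horizontal lines between roles). Mutant centroblast library 3 and mutant centrocyte library 3 are the reddest columns.

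Single mutant libraries carried the high values of nearly every member. Mutant centroblast library 3 was above the mean of its group for 35 of 35 members, and libraries 1, 2 and 4 for 5, 3 and 18. Of all tested genes, 54%, 51.2%, 47.5% and 52.8% were above it in libraries 1 to 4. In mutant centrocytes the numbers of members were 5, 2, 34 and 33 for libraries 1 to 4, against 49.8%, 52.2%, 48.1% and 54% of all tested genes. In control centroblasts they were 7, 31, 19 and 22, against 49.7%, 53%, 54% and 50.7%. In control centrocytes they were 6, 29, 16 and 20, against 49.6%, 49.3%, 50.2% and 50.5%. In mutants both female libraries were above both male libraries in the number of members, and in controls library 1, a male, was the low one in both zones. The macrophage and monocyte markers were also higher in the female libraries of mutants, with 122.6 and 116.6 CPM against 48.49 and 41.96 CPM in the male mutant centroblasts, and 371.9 and 382.4 CPM against 96.67 and 59.16 CPM in the male mutant centrocytes. Their part in the result was not tested beyond the fits that take their summed level as a covariate.

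**Figure D4:**
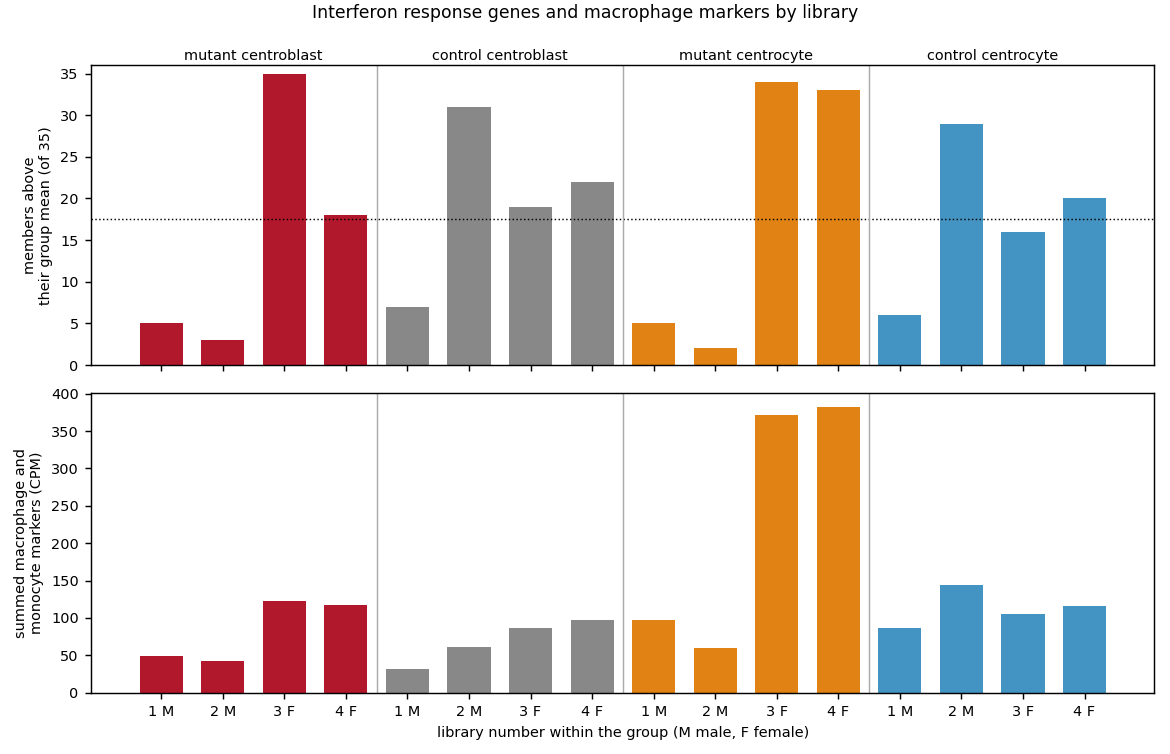
For each of the 16 libraries, the number of the 35 tested members above the mean of their group (top, dotted line at the midpoint) and the summed CPM of 20 macrophage and monocyte markers (bottom). The top panel is highest for mutant centroblast library 3, at 35, and mutant centrocyte libraries 3 and 4, at 34 and 33. In these libraries 47.5%, 48.1% and 54% of all tested genes were above the mean of their group. In the bottom panel mutant centrocyte libraries 3 and 4, at 371.9 and 382.4 CPM, lie above all others, while mutant centroblast libraries 3 and 4, at 122.6 and 116.6 CPM, lie within the range of control centrocytes.

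Split by sex, more members differed by genotype in females. Among females alone, 9 of 35 members were higher and 0 lower in mutant than in control centroblasts, against 3.27% of all tested genes (1.19% higher and 2.08% lower). A positive change was seen for 30 of 35 members and 52% of all genes, with medians of 0.80 and 0.015 (log2). Among males alone 1 was higher, Ifi27l2a, and 1 lower, Ifit2, against 14.3% of all genes (6.8% higher and 7.52% lower). The median was 0.02, against −0.012 over all genes. In centrocytes 12 were higher and 0 lower among females, against 13.9% of all genes (6.63% higher and 7.22% lower). The median was 0.68 over the members and −0.019 over all genes. Among male centrocytes 1 was higher, Ifi27l2a, and 2 were lower, Ifit2 and Gbp3, against 5.82% of all genes (1.97% higher and 3.85% lower). Their medians were −0.08 over the members and −0.018 over all genes. Each of these groups held 2 libraries, and the spread was pooled over the 8 libraries of that sex. The difference between the sexes in these changes passed in edgeR for 0 of 35 members in centroblasts, against 0.269% of all genes, and for 0 in centrocytes, against 0.0459%. At an unadjusted p under 0.05 there were 10 members in centroblasts, against 18.6% of all genes, and 16 in centrocytes, against 9.51%.

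The members that were higher in female mutants over female controls in both zones were Ifit3, Mx1, Oas3, Usp18, Dhx58, Ifi27 and Ifi27l2a. For Usp18 the change in centroblasts was 1.75 ± 0.37 in females (adjusted p = 0.0287) and −0.08 ± 0.42 in males (adjusted p = 0.918). For Ifit3 it was 1.61 ± 0.32 in females (adjusted p = 0.0229) and 0.13 ± 0.48 in males (adjusted p = 0.887). For Ifi27l2a it was 1.54 ± 0.29 in females (adjusted p = 0.0211) and 1.43 ± 0.20 in males (adjusted p = 0.00106).

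**Figure D5:**
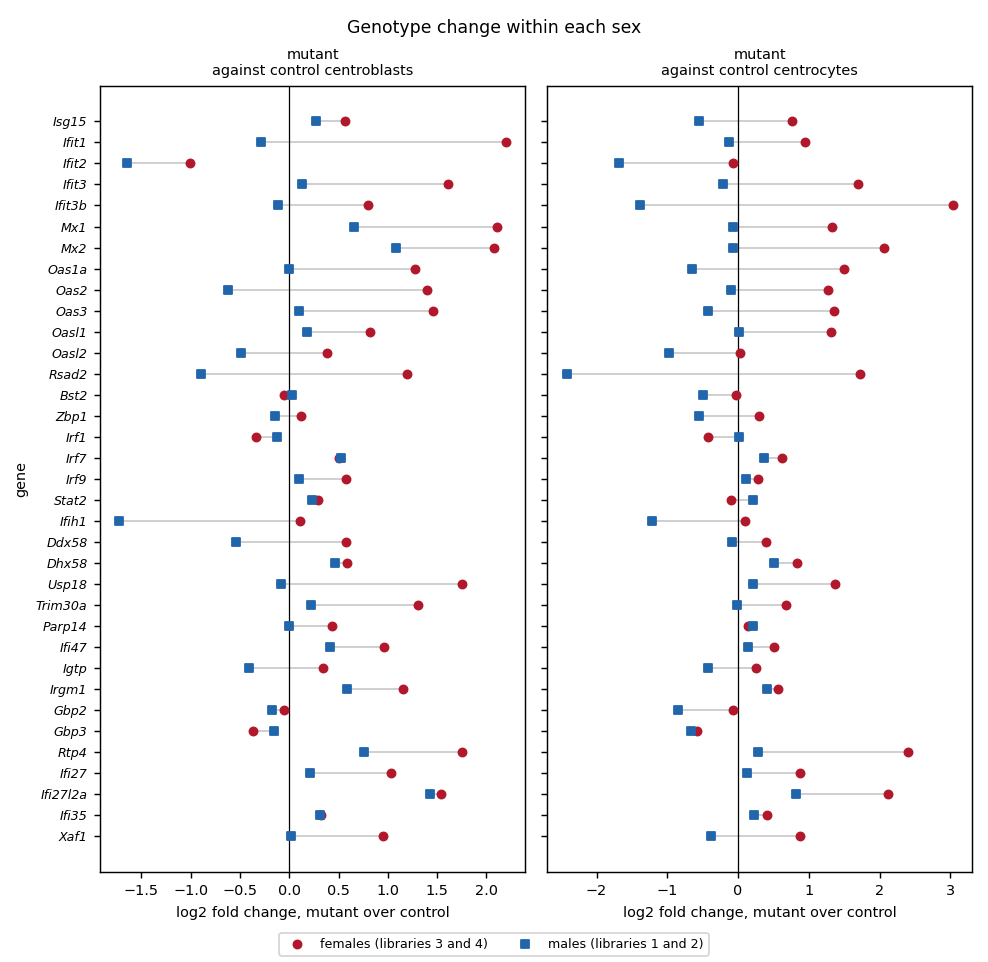
Log2 fold change of mutant over control for each of 35 members in females (circles, libraries 3 and 4) and males (squares, libraries 1 and 2), fitted for each sex alone. In centroblasts 30 of the 35 female values and 19 of the 35 male values lie right of 0, against 52% and 48.9% of all tested genes.

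The sexes were then compared within each genotype, with the zones averaged, a contrast chosen after the counts were seen. In mutants 11 of 35 members were higher and 0 lower in females than in males, or 31.4%, against 1.48% of all tested genes (1.3% higher and 0.177% lower). They were Ifit3b, Oas1a, Oas3, Oasl2, Zbp1, Ddx58, Igtp, Gbp2, Rtp4, Ifi27 and Ifi27l2a. In controls 1 member, Irf1, was higher in females and 0 were lower, against 3.08% of all tested genes (2.26% higher and 0.82% lower). The difference between these differences passed for 2 members, both higher, against 0.833% of all tested genes (0.341% higher and 0.492% lower). It was 1.56 ± 0.32 for Oas3 (adjusted p = 0.0396) and 2.66 ± 0.52 for Ifit3b (adjusted p = 0.0396). Oas3 had 11.2 and 6.75 CPM in female and 3.52 and 3.29 CPM in male mutant centroblasts, and 2.92 and 3.69 CPM in female and 2.25 and 4.05 CPM in male control centroblasts. Female and male mutants were separate for Oas3, and the controls were not. Ifit3b was low throughout, at 0.134 to 1.66 CPM.

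The comparison of the sexes rested on few libraries. Without both mutant libraries 3, 0 members were called in mutants and 0 for the difference between genotypes, against 0.651% and 0.0129% of all genes tested there. The numbers were 6 and 0 without both mutant libraries 1 (against 1% and 0.212%), 1 and 0 without both mutant libraries 2 (against 0.483% and 0%), and 11 and 12 without both mutant libraries 4 (against 0.817% and 2.23%). Of 20 fits without 1 library, or without both mutant libraries of a number, Oas3 kept its call for the difference between genotypes in 6 and Ifit3b in 5. Markers of other cell types moved with this contrast. Between the sexes in mutants, 15 of 19 tested macrophage markers were higher in females too, as were 2 of 5 NK cell, 2 of 6 red cell, 2 of 8 T cell and 3 of 11 naive follicular B cell markers, with no marker of these lists lower. All 5 NK cell and all 6 red cell markers had a positive change, against 46.9% of all tested genes, with medians of 2.17 and 3.26 (log2). The part of these cells in the result was not tested. With the summed macrophage markers as a covariate both counts of members were 0 in edgeR, but the calls over all tested genes were then also few, at 4, or 0.0262%, in mutants and 0 for the difference between genotypes, so that these counts say nothing particular about the members. With the centroblast and centrocyte counts of the same number summed, in case they come from 1 mouse, which the labels do not say, 7 and 3 members were called, against 1.42% and 2.24% of all tested genes. DESeq2 called 21 and 13, against 1.99% and 6.79%.

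Centrocytes and centroblasts were compared within each genotype, to see which members follow the passage between zones. In controls Mx1, Stat2 and Irgm1 were higher and Dhx58 and Ifi27l2a lower in centrocytes, or 14.3% of the members, against 27.8% of all tested genes (14.9% higher and 12.9% lower). Of all genes called between zones in controls, 53.7% were higher, or 43.6% with the offset for GC content and length, under which 4 members were higher and 2 lower. Over all genes the offset gave 2571 higher and 3321 lower, against 2270 and 1960 without it. The median change was 0.18 over the members and 0.005 over all genes. Mx1 had 1.63, 4.72, 1.74 and 2.65 CPM in control centrocytes, against 0.527, 0.904, 0.457 and 0.696 CPM in control centroblasts, 4.14-fold higher with no overlap (2.05 ± 0.49, adjusted p = 0.00494). Stat2 and Irgm1, whose values are above, were also separate between zones, at 0.41 ± 0.08 (adjusted p = 0.00148) and 0.95 ± 0.26 (adjusted p = 0.0104). Ifi27l2a fell by 0.92 ± 0.31 on the log2 scale (adjusted p = 0.0353) and Dhx58 by 0.39 ± 0.11 (adjusted p = 0.0161). Mx1, Stat2 and Irgm1 were called whichever library was left out, Dhx58 was not without control centrocyte library 3 or 4, and Ifi27l2a was called in 1 of 8 such fits, the one without control centroblast library 1. With the number as a block, although not every control pair of a number deviated together, 5 members were again called, against 22.7% of the genes tested there, with Dhx58 lost and Ifi47 gained as higher (0.44, adjusted p = 0.0188). The libraries did not overlap for 5 members, against 27.7% of all tested genes (15.4% higher and 12.3% lower). Of the 20 macrophage markers, 19 were tested and 1 was higher in control centrocytes, and 6 of 11 naive follicular B cell markers were higher and 1 lower there, and their part in the result was not tested.

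In mutants 0 of 35 members passed between centrocytes and centroblasts in edgeR, against 16% of all tested genes (8.92% higher and 7.07% lower). Of all genes called in mutants, 55.8% were higher, or 44.6% with the offset, under which 1 member was higher and 3 lower. Over all genes the offset gave 1834 higher and 2274 lower, against 1360 and 1078 without it. There were 7 members at an unadjusted p under 0.05, against 29.7% of all genes, and DESeq2 called 3, against 17.1%. Deviations of mutant libraries of the same number correlated at 0.186 to 0.681. Some differently numbered mutant pairs correlated as much, at up to 0.413, so pairing by number is not shown. With the number as a block 7 members were called, against 25.2% of the genes tested there (14.8% higher and 10.4% lower). Mx1 (1.28, adjusted p = 0.00029), Oas2 (1.27, adjusted p = 0.00165), Irf1, Ifih1 and Irgm1 were higher, and Ifi27l2a (−0.92, adjusted p = 0.000449) and Gbp3 lower, in centrocytes under that block. With the summed macrophage markers as a covariate and no block 7 members were called as well, but all 7 (Isg15, Oas3, Oasl2, Gbp2, Rtp4, Ifi27 and Ifi27l2a) were lower in centrocytes, against 13.1% of all tested genes. Markers of other cells also moved between the zones of mutants, where 5 of 19 tested macrophage markers were higher. All 19 had a positive change, against 52% of all tested genes, with a median of 1.51 (log2), and 6 of 11 naive follicular B cell markers were higher. The part of these cells in the blocked calls was not tested. The libraries did not overlap for 1 member, Stat2, against 22.1% of all tested genes (11.5% higher and 10.5% lower).

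The interaction of genotype and zone passed for 0 of 35 members in edgeR and in DESeq2, and 0 had an unadjusted p under 0.05. Over all tested genes edgeR called 0 and DESeq2 1, with 429, or 2.81%, at an unadjusted p under 0.05. The genotype changes of the zones therefore were not shown to differ for any member.

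The genes around the members in the pathway were taken from lists drawn up with earlier results known. Interferon genes themselves gave almost no reads. Of 21 type I, II and III interferon genes 16 had no count in any library, and the others summed to 44 counts over 16 libraries, with at most 7 in a library. Ifng had 15 counts in all and Ifnk, a type I interferon, 24. Ifnb1 had 0, and 3 counts, the limit that a count of 0 allows in a library, come to at most 0.0852 CPM.

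Among the 6 receptor genes, mutants of both zones had 3 higher and 1 lower, against 10.5% of all tested genes called in centroblasts and 16.5% in centrocytes. Ifnar2, which encodes the signalling chain for type I interferon, had 20.9, 22.5, 23.8 and 25.1 CPM in mutant centroblasts, against 13, 17, 14.6 and 14.5 CPM in control centroblasts. In centrocytes it had 27.7, 28.9, 26.5 and 29.4 CPM in mutants and 19.9, 21.0, 19.1 and 19.5 CPM in controls. The genotypes were separate in both zones and both sexes, with changes of 0.64 ± 0.10 (adjusted p = 0.000434) and 0.50 ± 0.10 (adjusted p = 0.00286). Ifngr2, the second chain of the interferon gamma receptor, rose by 0.39 ± 0.09 in centroblasts (adjusted p = 0.00584) and 0.31 ± 0.08 in centrocytes (adjusted p = 0.0189). Il10rb, a chain shared by the receptors of interferon lambda and interleukin 10, rose by 0.76 ± 0.11 (adjusted p = 0.000202) and 0.74 ± 0.11 (adjusted p = 0.000231). Ifnlr1, the chain particular to interferon lambda, fell by 0.99 ± 0.27 (adjusted p = 0.0227) and by 0.96 ± 0.27 (adjusted p = 0.0199). Ifnar1 differed by 0.06 ± 0.09 and 0.10 ± 0.09 (adjusted p = 0.742 and 0.499), and Ifngr1 by 0.04 ± 0.10 and 0.23 ± 0.10 (adjusted p = 0.856 and 0.125).

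Upstream of interferon, 22 genes of nucleic acid sensing were tested, and 2 were higher and 0 lower in mutants of each zone, a share below the 10.5% and 16.5% of all tested genes. Tmem173, which encodes STING, the adaptor of cytosolic DNA sensing, had 102, 111, 109 and 128 CPM in mutant centroblasts, against 62.6, 65.2, 79.1 and 82.9 CPM in control centroblasts. The groups were separate (0.63 ± 0.11, adjusted p = 0.00131), and in centrocytes Tmem173 rose by 0.52 ± 0.11 (adjusted p = 0.00506). Ikbke, a kinase that activates IRF3 and IRF7, rose by 1.15 ± 0.15 in centroblasts (adjusted p = 0.000123), and Mb21d1, which encodes the DNA sensor cGAS, by 1.48 ± 0.38 in centrocytes (adjusted p = 0.0139). Between zones 4 of the 6 receptor genes were higher and 0 lower in centrocytes of each genotype, against 16% of all tested genes in mutants and 27.8% in controls.

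Other interferon targets outside the 36 passed in both directions. Of 78 tested, 10 were higher and 2 lower in mutant than in control centroblasts, with a median of 0.23 (log2), and 10 were higher and 4 lower in centrocytes, with a median of 0.14. These counts stand against 10.5% of all tested genes in centroblasts and 16.5% in centrocytes, the second of which is close to the share of the 78. In centroblasts Lgals9, which encodes galectin-9, rose by 1.18 ± 0.16 (adjusted p = 0.000145), Trim30d by 1.29 ± 0.23 (adjusted p = 0.00112), Gbp8 by 1.28 ± 0.27 (adjusted p = 0.00502) and Gbp9 by 1.05 ± 0.19 (adjusted p = 0.00115). Lgals9 had 51.2, 40.2, 68.5 and 59.9 CPM in mutant centroblasts, against 20.4, 28.4, 22.2 and 25.9 CPM in control centroblasts, so males and females were both separate. Slfn9, of the schlafen family, fell by 1.45 ± 0.37 (adjusted p = 0.0163) and Bcl2l14 by 1.37 ± 0.25 (adjusted p = 0.0014). Between zones 12 of the 78 were higher and 1 lower in mutant centrocytes, a share close to the 16% of all tested genes, and 24 were higher and 3 lower in control centrocytes, against 27.8%.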

How the data were processed

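RNA of 16 libraries, made with TruSeq kits from cells sorted into Trizol per the labels' protocols, was analysed. The authors deposited whole-number read counts per gene symbol and without normalization. Reads went, per the submitters' processing notes, through Trim Galore and cutadapt, STAR 2.5.3a on mm10 and featureCounts 1.4.5-p1 of Subread, while the strand, the options of counting and its annotation were not given in the sources used here. Naive B cells named in the design text were not analysed here. Members were matched by symbol, coordinates came from GENCODE M21 and promoters from RefSeq.

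Counts were fitted in R 4.3.3 with edgeR 4.0.16 (filterByExpr by group, TMM factors, quasi-likelihood test, 1 mean per group over 16 libraries, 12 residual degrees of freedom). The contrasts of the sexes came from a separate fit of the 16 libraries, with 1 mean for each group and sex. Each such mean rested on 2 libraries, and fewer residual degrees of freedom were left. P-values were 2-sided, adjusted by Benjamini-Hochberg over all 15240 tested genes, with a threshold of 0.05. CPM values divide a count by the size of its library after TMM normalisation, changes are log2 with their SE, and levels are mean ± SD. The labels tie no library to a mouse, so p-values measure the spread between these samples, which may be partly technical. Sex was read from Ddx3y, Eif2s3y, Kdm5d and Uty (male above 5 CPM in sum).

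The members and lists were chosen with earlier results of these data known. The rule for naming genes took every member called in a comparison of genotype or zone, the member of each role with the highest CPM, the receptors, and up to 4 called genes per direction of other lists. Other members were named for their role after their values were seen. A gene that the rule would also name is not reported here.

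Deviations of mutant centroblast and centrocyte libraries of the same number from their group means had correlations of 0.681, 0.186, 0.354 and 0.471 over genes. The blocked fit therefore stands beside the comparison of zones. Some differently numbered mutant pairs correlated as much, at 0.413 (centroblast 3 with centrocyte 4), 0.411 (1 with 2) and 0.313 (2 with 3). Control pairs gave −0.022, 0.646, 0.694 and 0.15 and were not taken as paired. Alternatives were DESeq2 1.42.0, RLE factors, other filters, the compared groups alone, a replicate block, sex as a covariate, each sex alone, an offset for GC content and length (4 spline degrees of freedom, 96.9% of tested genes), immunoglobulin genes left out and each library left out. Added after the counts were seen were the contrasts of the sexes, both mutant libraries of a number left out, macrophage markers as a covariate and libraries of a number summed. The labels name no molecular identifiers that would mark PCR copies, so the limit of 3 counts covers counting error only.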

Additional observations from a re-analysis of the deposited data

Results flagged for a closer look

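A library stood apart when its gap to the nearest other library of its group, divided by the range of the group, passed Dixon's 95% value for 4 samples. Chance picks out about 1 in 20 groups, and 8 of the 148 groups tested were picked out. Mutant centroblast library 3 was far above the other 3 libraries of its group for Ifit1 (1.648 CPM, others 0.5247 to 0.6889), Rsad2 (0.9156 CPM, others 0.3148 to 0.3582), Bst2, which encodes the virus tether tetherin (14.28 CPM, others 7.752 to 8.735), and Ifi47 (116.8 CPM, others 56.12 to 65.94). Irf1 was low in mutant centrocyte library 1, at 71.97 CPM with the others at 101.2 to 104.4 CPM. Irf9 was low in control centrocyte library 1, at 61.05 CPM with the others at 79.8 to 83.64 CPM. The sum over the 36 members was low in control centroblast library 1, at 753.4 CPM with the others at 912.2 to 929.2 CPM, and in control centrocyte library 1, at 850.8 CPM with the others at 1018 to 1047 CPM.

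For 2 members the genotype difference was larger in females than in males, by the test of the difference itself with the zones averaged. The difference was 1.5589 (log2) for Oas3 and 2.6575 for Ifit3b, both with an adjusted p of 0.0396 in edgeR. Both calls were lost without both mutant libraries 3.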

How the results depend on the processing

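Of the 19 calls of a member in a comparison of genotype or zone, 7 were kept whichever library of the compared groups was left out (Dhx58 and Ifi27l2a in both genotype comparisons, and Mx1, Stat2 and Irgm1 between zones in controls), and none changed direction in these fits. With 1 library left out, or both mutant libraries of a number, members called ranged from 3 to 8 in the centroblast comparison (8 with all libraries), 2 to 5 in centrocytes (6), 0 to 3 between zones in mutants (0), 3 to 6 between zones in controls (5), 0 to 16 for females against males in mutants (11) and 0 to 12 for genotype by sex (2). No share of all genes is given for the fits without 1 library, so these ranges cannot be set against other genes. In the centroblast comparison the number was 13 with no filter and with DESeq2, and 5 when fitted on its own groups. It was 2 with males alone and 4 with the replicate block. Over all genes, 619 were higher and 976 lower with the main settings, 585 and 923 with no filter, and 832 and 1173 with DESeq2. These were 354 and 702 on its own groups, 1046 and 1158 with males alone, and 272 and 599 with the block. In centrocytes the number of members was 3 with males alone and 12 with females alone, against 5.82% and 13.9% of all genes tested there. Between zones in mutants it was 4 with no filter, 1 when fitted on its own groups, 7 under the replicate block, 2 with a term for sex, with males alone or without mutant centrocyte libraries 3 and 4, 4 with the GC and length offset, 9 with the block and that offset, 3 with DESeq2 and 7, all lower, with macrophage markers as a covariate. Over all genes, 1360 were higher and 1078 lower with the main settings, 1354 and 915 with no filter, and 1540 and 1139 on its own groups. These were 2099 and 1477 under the block, 1548 and 1116 with the sex term, and 792 and 561 with males alone. Without those libraries they were 1167 and 727, with the offset 1834 and 2274, and with block and offset 2249 and 2553. DESeq2 gave 1622 and 1343, and the macrophage covariate 1183 and 806. Between zones in controls the number of members was 1 with males alone and 15 with the block and the offset. Over all genes, 2270 were higher and 1960 lower with the main settings. These were 1205 and 802 with males alone, and 2555 and 3221 with the block and the offset. For females against males in mutants the number of members was 27 with no filter, 21 with DESeq2, 7 with same-numbered libraries summed and 0 with macrophage markers as a covariate. Over all genes, 198 were higher and 27 lower with the main settings, 523 and 121 with no filter, and 300 and 59 with DESeq2. These were 196 and 20 with libraries summed, and 0 and 4 with the covariate. For genotype by sex the number of members was 20 with no filter, 13 with DESeq2, 1 with genes of at least 1 CPM and 0 with macrophage markers. Over all genes, 52 were higher and 75 lower with the main settings, 659 and 614 with no filter, and 357 and 528 with DESeq2. These were 49 and 89 with genes of at least 1 CPM, and 0 and 0 with macrophage markers as a covariate. With that covariate Isg15 changed direction between zones in mutants (−0.66, adjusted p = 0.0482), and, uncalled, so did Ifit3b (−0.58), Oas3 (−0.23), Oasl2 (−0.81), Rtp4 (−0.38) and Ifi27 (−0.19) for females against males in mutants. The cause was not tested. The replicate block joins libraries of a number, and so of a sex, in genotype comparisons, where the number is no shared mouse. It changed no interaction call. Low counts limit the genes under about 1 CPM, such as Rsad2, Ifit1 and Ifit3b.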
